A study of Mus musculus with 15 samples.

Results

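The genes of MHC class I and class II antigen presentation were described in cultured lymphatic endothelial cells (LECs) of mouse lymph node, with and without VEGF-C. The set of 36 genes was given by name, with earlier results of these data known when the genes and lists were chosen. All 36 were among the 45706 genes of the table. They comprise 28 genes of the class I pathway (Cd1d1 and the transactivator Nlrc5 included) and 8 of the class II pathway (its transactivator Ciita included).

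The cells were Pdpn+ CD31+ CD45- LECs of female C57Bl/6 mice, sorted from pooled inguinal, popliteal, axillary, brachial and cervical lymph nodes. All groups were cultured in the same serum-containing medium. It held no added VEGF-C (unstimulated, 0 ng/mL) or recombinant murine VEGF-C, produced in HEK-293E cells, at 10 or 100 ng/mL for 72 h, with 5 libraries in each group, lettered A to E. VEGF-C is the growth factor that drives lymphatic vessel growth, mainly through the receptor Flt4 on LECs. The age of the mice is not stated in the labels. The labels also leave out whether libraries A to E were grown as separate cultures. The p-values therefore judge group differences only against the variation among these libraries, and part of that variation may be technical.

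As background, MHC class I molecules are built from a polymorphic heavy chain and the light chain beta-2 microglobulin, and they show peptides from inside the cell to CD8 T cells. The peptides are cut by the proteasome, moved into the endoplasmic reticulum by the Tap1-Tap2 transporter, trimmed there, and loaded with the help of tapasin and chaperones. Class II molecules show peptides from endosomes to CD4 T cells, and their genes depend on Ciita. Interferon raises many genes of both pathways, and LECs of the lymph node are known to display antigens to T cells and to restrain them.

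Total estimated counts lay between 27784906 and 38590841 per library. Levels are given as CPM, the count of a gene scaled to its library's total, and between genes as RPKM, which is scaled to gene length too. Principal components were taken over the 17650 genes that passed the filter on low counts. Along the first, with 64.8% of the variance, the 5 libraries at 100 ng/mL (38.8 to 78.5) stood apart from the other 10 (-41.8 to -22.7). Along the second component (12.6%), unstimulated E stood apart at the low end (-41.1). So did library D at 10 ng/mL (-28.2) and library B at 100 ng/mL (-45.1). Library C at 100 ng/mL was the highest on this component, at 30.8. The lymphatic markers Prox1, Lyve1, Flt4, Nrp2 and Pdpn and all 8 pan-endothelial markers were present in every group. The lymphatic markers Ccl21a and Mmrn1 had means under 0.1 CPM in each group. Itga2b, Reln and Stab2, the rest of the 10 listed lymphatic markers, had a mean of at least 0.1 CPM in some group. Of the 10, 8 were tested, with log2 fold changes from -2.05 to 5.70 at 100 ng/mL against unstimulated. In edgeR 1 was called lower and 4 higher, beside 21.5% and 21.4% of all genes tested. Summed fibroblastic and mural markers were at 3167 to 4658 CPM in unstimulated libraries, 2653 to 4408 CPM at 10 ng/mL and 928 to 1361 CPM at 100 ng/mL. In these bulk libraries, fewer cells of a type and less RNA per cell cannot be told apart.

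Most class I genes tested were lower at 100 ng/mL VEGF-C, with falls among heavy chains, peptide transport and loading genes and the immunoproteasome. Of the 36 genes, 32 passed the filter on low counts, and of these 25 fell and 0 rose against unstimulated cells (edgeR quasi-likelihood test, p adjusted over all tested genes and under 0.05), while 7 were not called. The 4 genes that did not pass were the scarce class II genes H2-Aa, H2-Ab1, H2-Eb1 and Ciita. Over all 17650 genes tested, 21.5% were called lower and 21.4% higher. The median log2 fold change of the 32 genes was -0.602, beside 0.0078 over all genes tested. Without H2-DMb1, which passed the filter through the groups in which it was higher, 24 of 31 fell and the median was -0.582, a count added after the data were seen. For 21 of the 32 (20 of 31 without H2-DMb1), every library at 100 ng/mL lay below every unstimulated library, and for 0 all lay above. Such separation held for 13.7% of all tested genes in the lower and 13.5% in the higher direction. Summed marker levels of leukocytes and of fibroblastic and mural cells were also lower at 100 ng/mL, and their part in these falls was not tested.

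At 10 ng/mL no change was called among these genes. This comparison and that of 100 ng/mL use the same unstimulated libraries. In the edgeR test 0 of the 32 genes passed the threshold and 0 had an unadjusted p under 0.05. DESeq2 and limma-voom also called 0, although DESeq2 gave an adjusted p for only 10 of the 32. The background at this dose was 0% of all genes called by edgeR, with 844 of 17650 genes at an unadjusted p under 0.05, and DESeq2 called 8 genes and limma-voom 0. Log2 fold changes of the 32 genes ran from -0.32 (Ifi30) to 0.13 (Erap1) around a median of -0.039. The smallest unadjusted p was that of Tap1, 0.0885, with a log2 fold change of -0.14 ± 0.08 and a 95% confidence interval from -0.31 to 0.024. A fall in the heavy chain H2-K1 like that at 100 ng/mL lay outside its 95% interval at 10 ng/mL, -0.21 to 0.32.

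Comparing the doses directly, 26 of the 32 genes were lower at 100 than at 10 ng/mL and 0 were higher, with 20.6% of all tested genes lower and 19.9% higher. The median log2 difference was -0.549. The peptidase gene Erap1 was called in this comparison (-0.43 ± 0.12, adjusted p = 0.0104) and not against unstimulated cells. This comparison and the one against unstimulated cells share the 100 ng/mL libraries, so they are not independent.

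**Figure D1:**
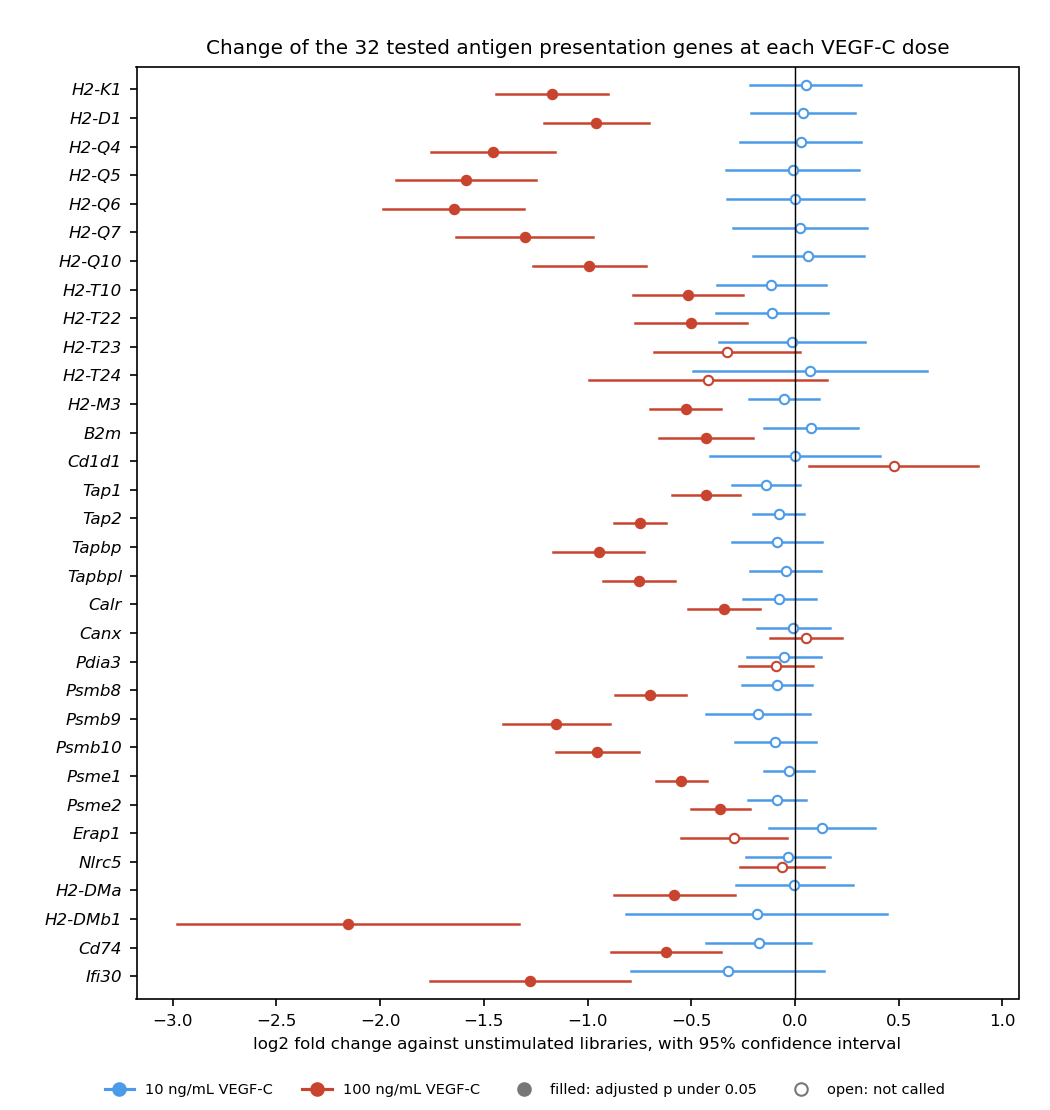
Log2 fold change against the 5 unstimulated libraries for each of the 32 tested genes (rows), at 10 ng/mL (blue) and 100 ng/mL (red) VEGF-C, with 95% confidence intervals from edgeR and filled points for an adjusted p under 0.05. At 100 ng/mL 25 points are filled, all left of 0, and at 10 ng/mL none is filled.

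Most members lie in the MHC. In GENCODE M21 (GRCm38), 22 of the 36 lie on chromosome 17 between bases 33915899 and 37274484, and the other 14 are spread over other chromosomes. On that chromosome 17 of 19 tested members fell, with a median log2 fold change of -0.947. Elsewhere 8 of 13 tested members fell, with a median of -0.361, so genes outside the MHC were among those that fell. Of all genes tested, 21.5% were called lower and 21.4% higher. The difference between the counts on and off chromosome 17 was not tested.

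Of the 36 members, 26 had a promoter window in RefSeq (GRCm38.p6), from 250 bases before to 50 bases after the start of transcription, and known control elements of MHC genes were searched in them. The Y box CCAAT, bound by NF-Y, was present on either strand in 19 of 26 (73.1%), beside 37.4% of all 32851 windows. The X2 core TGACG, bound by CREB and ATF factors, was present in 14 of 26 (53.8%), beside 20.8%. The NF-kB consensus was matched in 10 of 26 (38.5%), beside 4.5%. The interferon-stimulated response element core GAAANNGAA was matched in 5 of 26 (19.2%), beside 8.6%. All 4 motifs were searched on both strands, and their matches could overlap. A member with several windows counted as matched if any of them matched, while the shares over all windows count single windows. These shares describe the letters of the windows and not binding, and related genes share promoter sequence by descent. The 250 bases before the start are shown for 3 heavy chains with large falls, for H2-T22, whose log2 fold change was smaller, and for B2m, the most abundant member. For H2-K1, which has more than one window, the first listed is shown. Capitals mark matches to the NF-kB consensus and to the interferon core.

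H2-K1 (chr17:34000334-34000583, minus strand): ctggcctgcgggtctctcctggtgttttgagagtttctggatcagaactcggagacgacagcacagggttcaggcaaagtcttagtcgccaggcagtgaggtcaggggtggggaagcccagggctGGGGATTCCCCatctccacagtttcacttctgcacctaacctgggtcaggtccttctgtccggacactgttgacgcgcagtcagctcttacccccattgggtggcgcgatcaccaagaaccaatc
H2-D1 (chr17:35262844-35263093, plus strand): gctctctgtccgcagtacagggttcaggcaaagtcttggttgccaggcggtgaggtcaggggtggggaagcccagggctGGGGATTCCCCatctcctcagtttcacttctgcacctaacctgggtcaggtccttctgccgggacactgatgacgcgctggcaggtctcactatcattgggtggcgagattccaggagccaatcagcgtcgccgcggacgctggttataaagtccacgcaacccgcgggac
H2-Q4 (chr17:35379367-35379616, plus strand): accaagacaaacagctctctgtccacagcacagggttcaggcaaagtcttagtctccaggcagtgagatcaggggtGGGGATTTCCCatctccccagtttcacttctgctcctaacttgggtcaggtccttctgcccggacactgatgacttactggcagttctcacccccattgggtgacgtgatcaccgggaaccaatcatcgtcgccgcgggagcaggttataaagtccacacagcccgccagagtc
H2-T22 (chr17:36042743-36042992, minus strand): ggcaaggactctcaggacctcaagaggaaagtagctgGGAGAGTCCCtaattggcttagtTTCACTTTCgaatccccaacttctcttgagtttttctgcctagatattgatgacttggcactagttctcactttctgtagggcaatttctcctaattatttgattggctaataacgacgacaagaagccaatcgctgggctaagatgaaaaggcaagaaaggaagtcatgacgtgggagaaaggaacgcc
B2m (chr2:122147437-122147686, plus strand): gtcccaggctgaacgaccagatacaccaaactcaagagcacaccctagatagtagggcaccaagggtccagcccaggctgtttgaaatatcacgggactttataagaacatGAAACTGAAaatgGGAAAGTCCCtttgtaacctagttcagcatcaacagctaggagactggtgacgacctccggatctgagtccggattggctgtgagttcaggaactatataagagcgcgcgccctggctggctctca

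The capitals in H2-K1, H2-D1 and H2-Q4 are NF-kB matches that begin 125, 171 and 174 bases before the start, each run holding a pair of overlapping matches. In B2m the interferon core begins 139 and the NF-kB match 126 bases before the start. In H2-T22 the NF-kB match begins 213 and the interferon core 190 bases before the start. The windows shown are examples. None of the 4 motifs was matched in H2-Q10, Psmb8 or Psmb10, whose log2 fold changes at 100 ng/mL were -0.99, -0.70 and -0.95. H2-M3, at -0.53, had an NF-kB match. How matches go with the size of a fall was not tested.

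Heavy chains formed the largest group, and 10 of 12 fell at 100 ng/mL, with a median log2 fold change of -0.974. H2-Q5 and H2-T10, counted among these, are annotated as polymorphic pseudogenes in GENCODE M21. Of all genes tested, 21.5% were called lower and 21.4% higher. The classical chains H2-K1 and H2-D1, which present peptides to CD8 T cells, were the most abundant heavy chains per length, at 100.9 ± 12.9 and 77.7 ± 9.64 RPKM in unstimulated cells (SD, n = 5). H2-K1 measured 497, 549, 496, 534 and 374 CPM in unstimulated libraries A to E, 562, 501, 590.4, 380.5 and 505 at 10 ng/mL and 206, 193, 258, 231 and 202 at 100 ng/mL. All 5 libraries at 100 ng/mL lay below the other 10, and unstimulated E and 10 ng/mL D were the lowest of their groups. H2-K1 fell from 489.8 ± 68.7 to 218 ± 26.5 CPM (SD, n = 5), a log2 fold change of -1.17 ± 0.13 (SE) with an adjusted p of 3.89e-06 in edgeR. H2-D1 fell from 373 ± 50.5 to 192 ± 19.3 CPM (-0.96 ± 0.12 on the log2 scale, adjusted p = 1.38e-05). The ratio of H2-D1 to H2-K1 counts within a library rose from 0.762 ± 0.0129 to 0.884 ± 0.0307, with no overlap between groups (exact permutation test, two-sided, p = 0.007937, the smallest it can give, adjusted p = 0.01282), so H2-K1 lost proportionally more.

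The Q-region chains are nonclassical or tissue-restricted class I molecules, apart from H2-Q5, annotated as a polymorphic pseudogene. All 5 Q-region genes in the set fell. H2-Q4 and H2-Q6 had the smallest p-values among heavy chains. H2-Q4 measured 81.4, 85.1, 75.4, 83.1 and 56.9 CPM in unstimulated libraries A to E, 88.2, 78.9, 89.6, 57.2 and 75.3 at 10 ng/mL and 24.9, 24.01, 32.9, 32.2 and 25.3 at 100 ng/mL. H2-Q6 was at 80.4, 83, 75.4, 78.4 and 50.4 CPM in unstimulated libraries A to E, 81.6, 75.6, 83.9, 52.05 and 74.95 at 10 ng/mL and 21.3, 19.3, 28.6, 27.3 and 21.01 at 100 ng/mL. For both genes the highest library at 100 ng/mL lay well below the lowest of the other 10. H2-Q4 changed by -1.46 ± 0.14 on the log2 scale (adjusted p = 1.34e-06) and H2-Q6 by -1.65 ± 0.16 (adjusted p = 1.45e-06), the largest fall of any class I gene. H2-Q5, H2-Q7 and H2-Q10 changed by -1.58, -1.30 and -0.99. These chains are near copies of each other: of the 50-base stretches in the transcripts of H2-Q5, H2-Q6, H2-Q7, H2-Q4 and H2-Q10, 36.4%, 32%, 26.4%, 21.8% and 19.0% occur in another gene's transcripts too. How the authors assigned reads shared between genes is not stated in the labels or the table, so the level of each single Q gene is uncertain. For H2-K1 and H2-D1 the shares were 9.6% and 12.8%.

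Log2 fold changes of the T-region chains were smaller. H2-T22, a ligand of some gamma-delta T cells, fell from 79.7 ± 7.83 to 56.3 ± 11.4 CPM (-0.50 ± 0.13 on the log2 scale, adjusted p = 0.0051), and its near copy H2-T10 changed by -0.52 ± 0.12 (adjusted p = 0.00352). Of their 50-base stretches 34.5% and 32.9% occur in another gene, mainly in each other, and for both genes the groups overlapped through 100 ng/mL C. H2-T23 encodes Qa-1, which presents peptides to NKG2 receptors of natural killer cells. H2-T23 measured 44.5, 50.9, 42.8, 58.3 and 42.2 CPM in unstimulated libraries A to E, 51.2, 44.1, 62.9, 39.4 and 38.9 at 10 ng/mL and 35.4, 25.9, 49.6, 41.3 and 37.9 at 100 ng/mL. The groups overlapped, with 100 ng/mL C above 3 unstimulated libraries, and H2-T23 was not called (-0.33 ± 0.17, adjusted p = 0.125). H2-T24 was at 8.65, 9.88, 6.20, 10.7 and 5.69 CPM in unstimulated libraries A to E, 9.36, 5.94, 13.4, 6.55 and 7.85 at 10 ng/mL and 7.01, 3.64, 9.14, 6.09 and 4.84 at 100 ng/mL. It too overlapped between groups and was not called (-0.42 ± 0.27, adjusted p = 0.23). H2-M3, which presents formylated peptides, fell from 18.04 ± 2.06 to 12.5 ± 0.566 CPM, with no overlap (-0.53 ± 0.08, adjusted p = 9.53e-05). Without 100 ng/mL C, H2-T23 was called lower at -0.44 (adjusted p = 0.0398 in edgeR), and over all 26 alternatives its adjusted p ran from 9.20e-04 to 0.28.

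B2m, the light chain of every class I molecule, had the highest RPKM of all 44729 genes with a listed length, in each of the 3 groups: 1981 ± 218 unstimulated, 2042 ± 254 at 10 ng/mL and 1435 ± 109.9 at 100 ng/mL. B2m measured 2808, 3499, 3205, 3645 and 2738 CPM in unstimulated libraries A to E, 3550, 3193, 3861, 2703 and 3455 at 10 ng/mL and 2432, 2311, 2631, 2356 and 2088 at 100 ng/mL. All 5 libraries at 100 ng/mL lay below the other 10. B2m fell by less than the classical heavy chains, with a log2 fold change of -0.43 ± 0.11 and an adjusted p of 0.00438. The summed counts of H2-K1 and H2-D1 over B2m changed from 0.272 ± 0.0277 to 0.173 ± 0.0135 within libraries, again without overlap (exact permutation test, adjusted p = 0.01282).

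Cd1d1, a class I-like molecule that presents lipids to NKT cells, was one of 2 members above 0 on the log2 scale at 100 ng/mL. Cd1d1 measured 12.6, 11.2, 11.2, 11.1 and 7.72 CPM in unstimulated libraries A to E, 10.9, 10.41, 11.4, 9.30 and 11.8 at 10 ng/mL and 13.8, 8.48, 21.5, 14.01 and 17.2 at 100 ng/mL. The 100 ng/mL libraries ranged widely, with B below 9 of the 10 libraries of the other groups and C the highest of all 15. Cd1d1 was not called in edgeR (0.48 ± 0.19, adjusted p = 0.0567). DESeq2 called it higher (adjusted p = 0.0402), as did edgeR without 100 ng/mL B (0.62 on the log2 scale, adjusted p = 0.00349), and over all 26 alternatives its adjusted p ran from 1.29e-04 to 0.17. It shares 19.1% of its 50-base stretches with its copy Cd1d2.

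**Figure D2:**
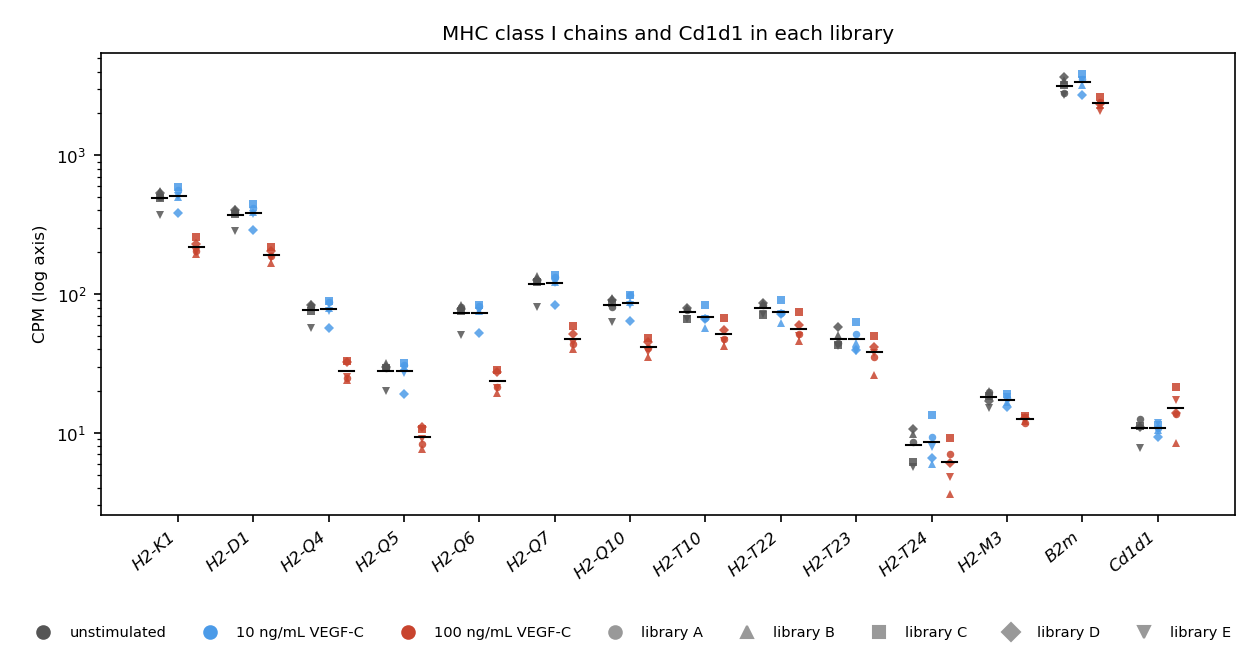
CPM (log axis) of the 12 class I heavy chains, B2m and Cd1d1 in each of the 15 libraries, coloured by dose, with marker shape for library letter and a bar at the group mean. Heavy chains from H2-K1 to H2-Q10 at 100 ng/mL sit clear of the other groups, while H2-T23, H2-T24 and Cd1d1 overlap.

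Of 7 genes for peptide transport and loading, 5 fell and 2 were not called, beside 21.5% lower and 21.4% higher of all genes tested. Tap2, one chain of the peptide transporter, had the smallest p of all tested members. Tap2 measured 80.8, 79.3, 72.98, 77.6 and 73.7 CPM in unstimulated libraries A to E, 75.7, 68.2, 79.6, 69.5 and 70.9 at 10 ng/mL and 43.8, 47.5, 43.4, 51.1 and 43.2 at 100 ng/mL. Its groups lay far apart, with the highest 100 ng/mL library below the lowest of the other 10. Tap2 changed by -0.75 ± 0.06 on the log2 scale (adjusted p = 1.97e-07), and its partner Tap1 by -0.43 ± 0.08 (adjusted p = 4.17e-04), from 134 ± 7.06 to 99.5 ± 9.88 CPM. Within libraries Tap1 over Tap2 rose from 1.74 ± 0.0905 to 2.17 ± 0.106 (exact permutation test, adjusted p = 0.01282). Exons of Tap1 overlap those of Psmb9 on the opposite strand, and whether counting used strand is not stated, so part of either count may belong to the other.

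Tapasin (Tapbp) tethers class I molecules to the transporter and edits their peptides. Tapbp measured 310.1, 313, 292, 362 and 269 CPM in unstimulated libraries A to E, 294, 284, 350.4, 242 and 286 at 10 ng/mL and 175, 143, 159, 182 and 144 at 100 ng/mL. Every library at 100 ng/mL was below every other library, and Tapbp showed the largest fall of the loading genes (-0.95 ± 0.10, adjusted p = 3.93e-06). Exons of Tapbp overlap those of Zbtb22 on the same strand. Tapbpl encodes TAPBPR, a second peptide editor. Tapbpl was at 25.1, 23.6, 22.6, 23.04 and 19.2 CPM in unstimulated libraries A to E, 21.1, 22.2, 25.1, 20.02 and 21.7 at 10 ng/mL and 13.1, 12.1, 15.1, 13.4 and 13.7 at 100 ng/mL. It changed by -0.75 ± 0.08 on the log2 scale (adjusted p = 3.75e-06), and all 5 libraries at 100 ng/mL were below the other 10.

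Log2 fold changes of the general chaperones of the endoplasmic reticulum were nearer to 0. Calr, the chaperone calreticulin, fell from 702 ± 61.2 to 554 ± 64.5 CPM (-0.34 ± 0.08, adjusted p = 0.00354), with overlap between the groups through 100 ng/mL B. Canx, which holds newly made heavy chains, was not called. Canx measured 805, 885, 836, 880.3 and 1028 CPM in unstimulated libraries A to E, 841, 857, 842, 992 and 879 at 10 ng/mL and 891, 1090, 875, 895 and 852 at 100 ng/mL. Library E was the highest of the unstimulated group, D of the 10 ng/mL group and B of the 100 ng/mL group, and the groups overlapped (0.05 ± 0.08, adjusted p = 0.638). Pdia3, the oxidoreductase ERp57 of the loading complex, was not called either. Pdia3 measured 1107, 1149, 1127, 1135 and 1387 CPM in unstimulated libraries A to E, 1091, 1105, 1046, 1316 and 1132 at 10 ng/mL and 1003, 1262, 1123, 1079 and 1077 at 100 ng/mL. The same 3 libraries were highest in their groups (-0.09 ± 0.08, adjusted p = 0.409). The sign for Canx turned without 100 ng/mL B, at -0.015 on the log2 scale.

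The immunoproteasome replaces the catalytic subunits Psmb5, Psmb6 and Psmb7 of the standard proteasome with Psmb8, Psmb9 and Psmb10, which interferon induces. All 3 inducible subunits and both chains of the PA28 activator (Psme1 and Psme2) fell, while the trimming peptidase Erap1 was not called. Psmb9 measured 27.2, 26.4, 23.7, 24.1 and 20.5 CPM in unstimulated libraries A to E, 21.8, 20.6, 23.3, 20.4 and 21.7 at 10 ng/mL and 8.16, 10.38, 14.2, 12.2 and 10.08 at 100 ng/mL. The highest 100 ng/mL library, C, lay below the lowest of the other 10. Psmb9 had the largest log2 fold change of the 6 proteasome and trimming genes, -1.15 ± 0.12 on the log2 scale (adjusted p = 2.73e-06). Psmb10 measured 59.8, 52.1, 49.5, 56.5 and 44 CPM in unstimulated libraries A to E, 49.3, 48.9, 55.3, 40.04 and 51.7 at 10 ng/mL and 28.3, 27.4, 24.96, 29.6 and 24.96 at 100 ng/mL. These groups were separate as well (-0.95 ± 0.09, adjusted p = 1.57e-06), and Psmb8 fell from 83.9 ± 6.50 to 51.8 ± 6.47 CPM (-0.70 ± 0.08, adjusted p = 6.69e-06). Psme1 was at 62.6, 64.4, 60.8, 63.9 and 54.5 CPM in unstimulated libraries A to E, 63.4, 59.2, 60.9, 54.1 and 62.8 at 10 ng/mL and 39.4, 43.3, 42.8, 43.7 and 40.4 at 100 ng/mL. Psme1 fell with little spread at 100 ng/mL (-0.55 ± 0.06, adjusted p = 2.62e-06), and Psme2 changed by -0.36 ± 0.07 (adjusted p = 5.01e-04). Psme2 shares 28.3% of its 50-base stretches with Psme2b.

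Most genes of the standard proteasome were not called, and over all genes tested 21.5% were called lower and 21.4% higher. The list held 17 genes of the standard particle and its other regulators, both activators and the inhibitor gene Psmf1. Of these, 2 fell (Psmb6 -0.24 ± 0.07, Psmf1 -0.12 ± 0.04), 1 rose (Psma6 0.18 ± 0.04) and 14 were not called, with a median of -0.024. Each inducible subunit was then set against the standard one it replaces, as a ratio of counts within a library. Psmb8 over Psmb5 changed from 2.63 ± 0.171 to 1.69 ± 0.179, Psmb9 over Psmb6 from 0.436 ± 0.0613 to 0.236 ± 0.0681, and Psmb10 over Psmb7 from 0.749 ± 0.106 to 0.387 ± 0.0307 (SD, n = 5). Of these 3 ratios, that of Psmb9 overlapped between groups, through unstimulated E and 100 ng/mL C. The counts of Psme1 and Psme2 over Psme3, a nuclear activator, changed from 0.900 ± 0.0849 to 0.581 ± 0.0678. Exact two-sided permutation tests on the log2 ratios gave p = 0.01587 for Psmb9 over Psmb6 (adjusted p = 0.02381) and 0.007937 for the others (adjusted p = 0.01282), adjusted over all 21 tests of 7 ratios and 3 comparisons. All 7 ratios also differed between 100 and 10 ng/mL (each exact p = 0.007937), and none differed between 10 ng/mL and unstimulated (smallest exact p = 0.3333).

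**Figure D3:**
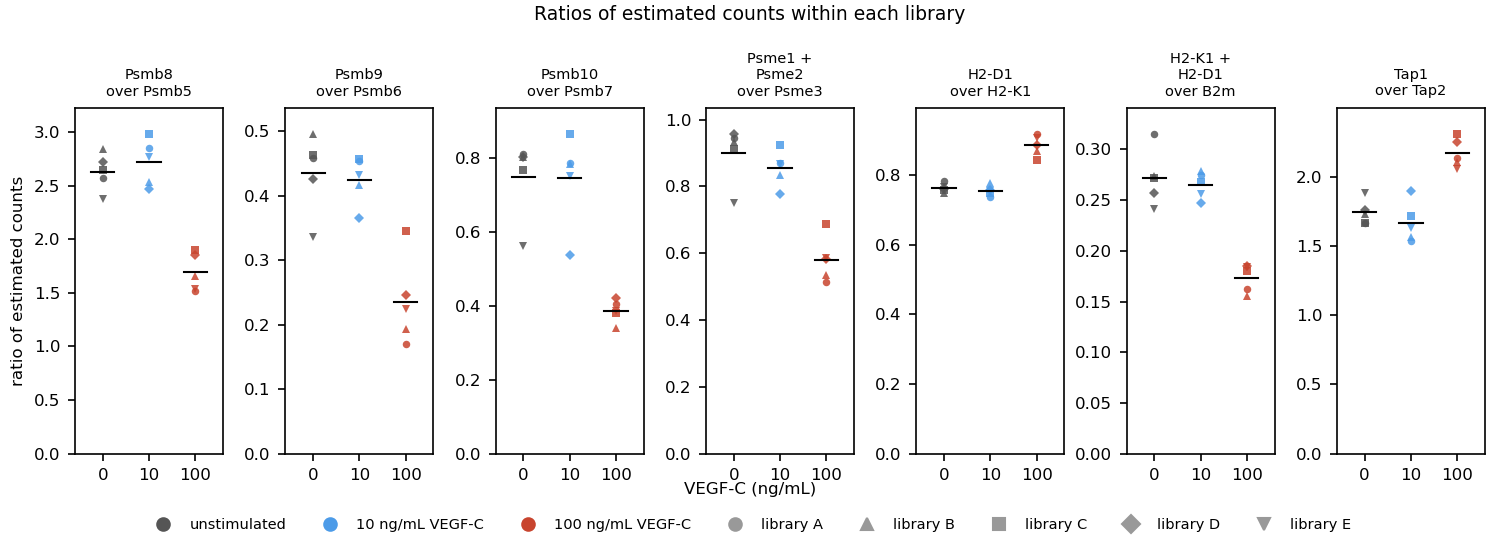
Ratios of estimated counts within each library for 7 gene pairs (vertical axes from 0), by VEGF-C dose, with bars at group means. At 100 ng/mL the 3 immunoproteasome ratios, the activator ratio and the heavy chain to B2m ratio are lower, and H2-D1 over H2-K1 and Tap1 over Tap2 are higher.

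Erap1 trims peptides to the length that class I molecules bind. Its exons overlap those of Cast on the opposite strand, and whether counting used strand is not stated. Erap1 measured 143, 145, 148, 150 and 101.3 CPM in unstimulated libraries A to E, 158, 156, 161, 109 and 169 at 10 ng/mL and 114, 102, 122, 109.6 and 112 at 100 ng/mL. Unstimulated E and 10 ng/mL D lay far below the rest of their groups, in or beside the range of the 100 ng/mL libraries. Erap1 was not called against unstimulated (-0.30 ± 0.12, adjusted p = 0.0584), and it was called lower without unstimulated E (-0.39, adjusted p = 0.00675 in edgeR), with adjusted p-values from 3.60e-05 to 0.124 over 26 alternatives. In the wider list of peptidases and folding factors, 6 of 13 tested fell and 2 rose, beside 21.5% and 21.4% of all genes tested. Those with the smallest p were Tpp2, a cytosolic peptidase, at 0.36 ± 0.05, and Uggt1, which checks glycoprotein folding, at -0.30 ± 0.05, and the other gene that rose was Thop1 (0.54 ± 0.12), named after its value was seen.

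**Figure D4:**
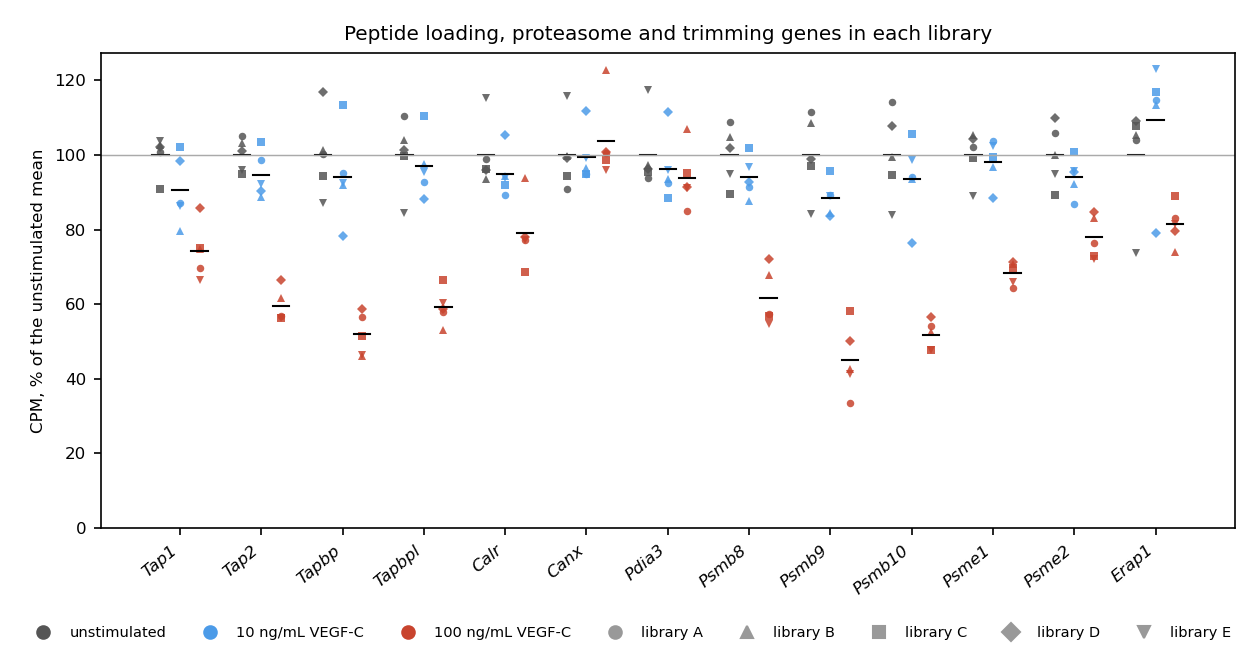
CPM of 13 peptide loading, proteasome and trimming genes in each library, as a percentage of the gene's unstimulated mean (axis from 0), coloured by dose with bars at group means. The 100 ng/mL points of Tap2, Tapbp, Tapbpl, Psmb9, Psmb10 and Psme1 lie below those of both other groups, whereas for Canx and Pdia3 the groups overlap.

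Nlrc5 is the transactivator of class I genes, and it was not called at either dose. Nlrc5 measured 93.8, 86.5, 82.8, 72.8 and 66.7 CPM in unstimulated libraries A to E, 81.7, 76.5, 75.05, 75.7 and 84.6 at 10 ng/mL and 65.8, 73.8, 87.99, 86.01 and 72.4 at 100 ng/mL. The 3 groups overlapped throughout, with a log2 fold change of -0.06 ± 0.09 at 100 ng/mL (adjusted p = 0.645, 95% confidence interval -0.26 to 0.14). Of 10 listed factors that bind the promoters of MHC genes, 5 fell and 0 rose, beside 21.5% and 21.4% of all genes tested. Nfyb (-0.41 ± 0.07) and Nfyc (-0.26 ± 0.06) of NF-Y fell, as did Rela of NF-kB (-0.37 ± 0.08). Rfxap (-0.19 ± 0.06) and Atf1 (-0.23 ± 0.08) fell too. Nfyc, Rfxap and Atf1 were named after their values were seen, and the median of the list was -0.131.

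Of 14 tested genes that carry the interferon signal to MHC genes, 9 fell and 1 rose, beside 21.5% and 21.4% of all genes tested. The median log2 fold change of the 14 was -0.348. Stat2 and Irf1, transcription factors of the interferon response, had the smallest p-values. Stat2 fell from 182 ± 13.4 to 116 ± 11.7 CPM (-0.65 ± 0.07, adjusted p = 6.82e-06) and Irf1 from 63.9 ± 8.48 to 34.8 ± 2.85 CPM (-0.88 ± 0.12, adjusted p = 2.74e-05). The gene that rose, named after its value was seen, was Irf8 (0.94 ± 0.16, adjusted p = 2.44e-04). Transcripts of the 2 interferon genes in the list were scarce or not detected: Ifng was at 0 in all 15 libraries and mean Ifnb1 was at 0.0837, 0.107 and 0.0727 CPM in the unstimulated, 10 and 100 ng/mL groups. Of 14 listed MHC-region and MHC-like genes outside the set, 9 were tested, and of these 6 fell and 0 rose. The falls included the scarce genes H2-T3 (0.675 to 0.228 CPM) and H2-M2 (0.319 to 0.160 CPM). These passed the filter through the groups in which they were higher, so the count is a description only. The smallest p-values belonged to H2-Bl (-1.21 ± 0.13) and H2-Q1 (-1.25 ± 0.14), which are class I copies and share the uncertainty of the Q genes.

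The class II chains and Ciita were close to absent in these cells. Deposited estimated counts of the alpha chain H2-Aa were 3.89, 1.95, 0, 0 and 0 in unstimulated libraries A to E, 0, 1, 1, 0 and 0 at 10 ng/mL and 0, 0, 0.910, 0 and 1 at 100 ng/mL. Only unstimulated A and B had more than 1 count of H2-Aa, against library totals of at least 27784906. The beta chain H2-Ab1 had 15.8, 7.87, 11.8, 0.960 and 22.3 counts unstimulated, 2.00, 7.47, 10.19, 8.56 and 4.94 at 10 ng/mL and 2.49, 3.50, 0.990, 2.35 and 0.770 at 100 ng/mL. The second beta chain, H2-Eb1, had 11.7, 9.07, 10.01, 8.91 and 15.7 counts unstimulated, 3.50, 5.83, 5.51, 5.27 and 8.92 at 10 ng/mL and 5.04, 6.66, 6.11, 5.69 and 5.47 at 100 ng/mL. Ciita, the switch for class II transcription, had 0.01 to 5 counts in every library. These 4 genes did not pass the filter on low counts. When edgeR was run without it, H2-Ab1 (-2.34, adjusted p = 0.00775) and H2-Eb1 (-0.79, adjusted p = 0.0498) were called lower at 100 ng/mL, and H2-Aa and Ciita were not called. H2-Eb1 was at -0.92 in the 10 ng/mL libraries on the same scale (adjusted p = 0.896), and between 100 and 10 ng/mL it differed by 0.13 (adjusted p = 0.891). Per length these 4 genes were at 0.145 RPKM or less in unstimulated cells, while B2m was at 1981 RPKM.

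Accessory genes of class II loading were low but measurable, and the 4 that passed the filter all fell at 100 ng/mL. Of all genes tested, 21.5% were called lower and 21.4% higher. A gene as scarce as H2-DMb1 passes the filter through the groups in which it is higher, so its values, and the 4 of 4, are a description only. H2-DMa and H2-DMb1 encode the exchange factor H2-DM, which removes the invariant chain's placeholder peptide. H2-DMb1 measured 0.397, 0.269, 0.620, 0.247 and 0.677 CPM in unstimulated libraries A to E, 0.306, 0.548, 0.424, 0.392 and 0.288 at 10 ng/mL and 0.125, 0.134, 0.131, 0.0365 and 0.0569 at 100 ng/mL. The libraries at 100 ng/mL held 1 to 4.01 estimated counts each, and the fitted log2 fold change was -2.16 ± 0.39. H2-DMb1 shares 22.7% of its 50-base stretches with H2-DMb2. H2-DMa was at 2.06, 1.73, 2.26, 2.13 and 2.14 CPM in unstimulated libraries A to E, 1.95, 2.31, 2.04, 2.02 and 1.99 at 10 ng/mL and 1.09, 1.64, 1.18, 1.82 and 1.195 at 100 ng/mL. Here 100 ng/mL D overlapped the unstimulated range, and H2-DMa fell (-0.58 ± 0.14, adjusted p = 0.00311). Exons of H2-DMa overlap those of Brd2 on the opposite strand, and whether counting used strand is not stated. Cd74, the invariant chain that guides class II molecules to endosomes, fell from 1.18 ± 0.0900 to 0.761 ± 0.113 CPM (-0.62 ± 0.12, adjusted p = 8.91e-04).

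Ifi30 encodes GILT, a lysosomal reductase that opens disulfide bonds of antigens. Ifi30 measured 7.72, 6.98, 8.87, 9.34 and 11.9 CPM in unstimulated libraries A to E, 5.82, 7.34, 6.92, 9.46 and 6.24 at 10 ng/mL and 3.46, 6.08, 2.29, 2.88 and 3.76 at 100 ng/mL. Unstimulated E and 100 ng/mL B were the highest of their groups, and unstimulated and 100 ng/mL libraries did not overlap, while 100 ng/mL B lay above 10 ng/mL A (-1.28 ± 0.23, adjusted p = 3.50e-04). Of 12 listed genes of endosomal proteolysis and class II turnover, 10 had values, and these moved in both directions. All 10 were tested, 4 being lower and 3 higher, beside 21.5% and 21.4% of all genes tested. Those with the smallest p were cathepsin H (Ctsh, -1.30 ± 0.13) and cathepsin B (Ctsb, 0.98 ± 0.10). Lgmn (-0.91), Ctsz (-0.34) and Ctss (-1.81), the cathepsin that degrades the invariant chain in antigen presenting cells, also fell, and Ctsl (0.84) and Ctsd (0.63) rose, these 5 named after their values were seen.

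Markers of leukocytes, among which antigen presenting cells express class II genes strongly, were lower at 100 ng/mL as well. Although the cells were sorted as CD45-, the CD45 gene Ptprc was at 4.47 ± 1.90 CPM unstimulated and 2.32 ± 0.595 CPM at 100 ng/mL. Of 13 tested leukocyte and antigen presenting cell markers, 10 fell and 0 rose, beside 21.5% and 21.4% of all genes tested. The median of these markers was -1.708 on the log2 scale. Scarce markers can pass the filter through the groups in which they are higher, so this count and median are a description only. The summed level of the 20 listed markers was at 77.1 to 179 CPM in unstimulated libraries, 70.7 to 150.5 CPM at 10 ng/mL and 48.5 to 68.8 CPM at 100 ng/mL. Ms4a1 was at 0 in all libraries, and Cd3e was under 0.1 CPM in every group. Fibroblastic and mural markers fell in 12 of 12 tested (14 listed, with Ccl19 at 0 and Lum under 0.1 CPM), and epithelial markers fell in 4 and rose in 1 of 6 (7 listed, with Epcam under 0.1 CPM and a summed level of 83.1 to 135.4 CPM unstimulated, 66.6 to 90.2 at 10 ng/mL and 30.7 to 60.2 at 100 ng/mL). Lymphatic markers fell in 1 and rose in 4 of 8 tested, and pan-endothelial markers fell in 3 and rose in 5 of 8. What part other cells had in the values of the antigen presentation genes was not tested.

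**Figure D5:**
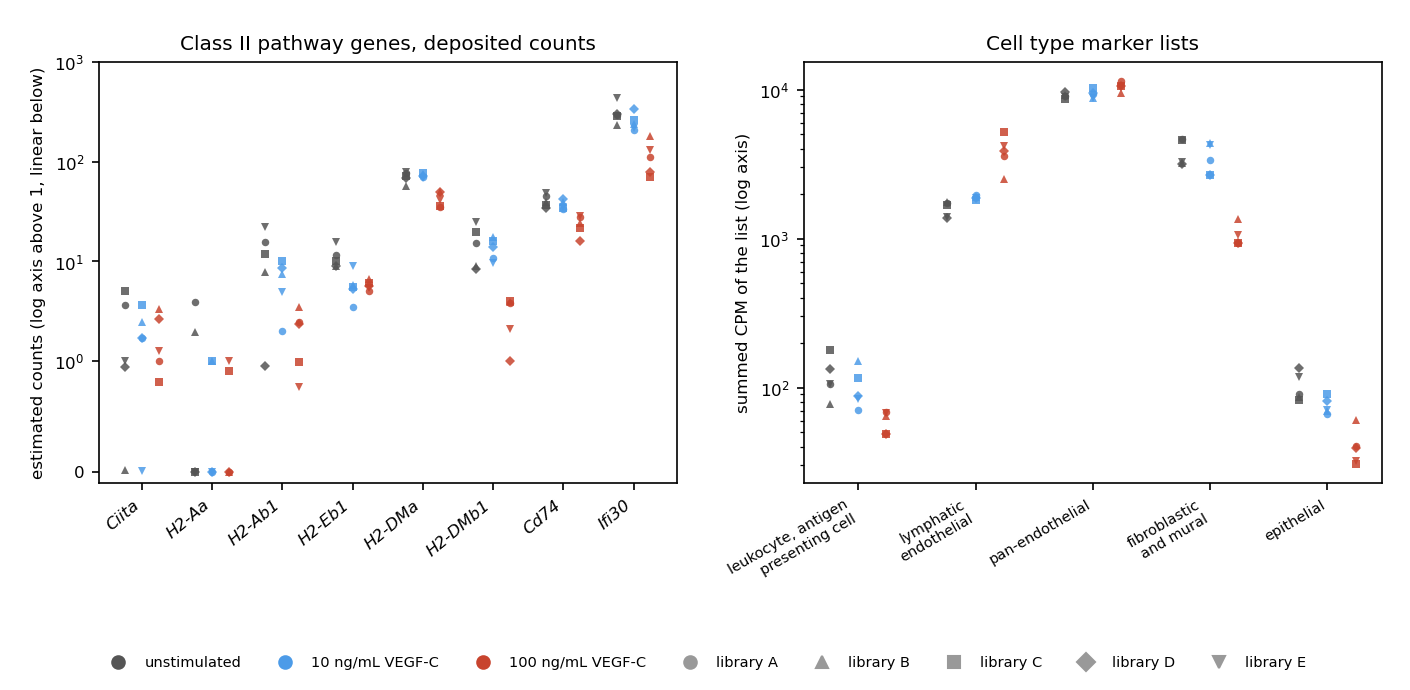
Left, deposited estimated counts of the 8 class II pathway genes in each library (axis logarithmic above 1 and linear below). Right, summed CPM of 5 marker lists in each library (log axis). The class II chains and Ciita stay below 23 counts, and the leukocyte, fibroblastic and epithelial sums are lower at 100 ng/mL while the lymphatic sum is higher.

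One setting left out the 3 libraries that stood apart at the low end of the second principal component (unstimulated E, D at 10 ng/mL and B at 100 ng/mL). Library C at 100 ng/mL, at the other end, was kept. There 26 of the 32 genes fell at 100 ng/mL and 1, Cd1d1, rose (0.52, adjusted p = 0.00418 in edgeR). Of all 17618 genes tested in that setting, 4150 fell and 4078 rose. Under that setting H2-K1, B2m and Ifi30 changed by -1.21, -0.47 and -1.40 on the log2 scale.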

How the data were processed

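Gene expression was measured in 5 RNA sequencing libraries in each of 3 groups, made with a stranded poly-A kit, per the labels' protocols. The authors deposited estimated counts per gene (64.3% of the values are not whole) and RPKM per gene in one table of 45706 genes. Bowtie2, FastQC and limma, without versions, and the builds GRCm38 and mm10 appear in the submitters' processing notes. The counting tool, and how it used strand and reads matching several genes, is not given in the sources used. The library totals that the deposited RPKM imply are 1.86 to 1.92 times the summed counts, so RPKM served only to compare levels between genes and in 1 alternative. A length of 0 is listed for 977 genes.

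Counts were rounded to whole numbers and tested in edgeR 4.0.16 (R 4.3.3): filterByExpr, TMM scaling, quasi-likelihood test, group as the only term, all 15 libraries in one fit, and Benjamini-Hochberg adjustment over 17650 genes at 0.05. CPM are the rounded counts scaled to the library total with the TMM factors. In simulated counts for 100 ng/mL against unstimulated (17501 genes), 70.1% of genes changed 1.5-fold, 92.5% of those changed 2-fold and 100% of those changed 4-fold were recovered, and 7 unchanged genes were called. Within-library ratios were compared by exact two-sided permutation tests on log2 ratios of counts. Estimated counts totalled 27784906 to 38590841 per library. No pair of libraries in a group agreed within sampling noise (chi-square per degree of freedom at least 8.68).

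The genes, lists and tests were chosen with earlier results of these data known. The text gives library values for the 2 genes of each role with the smallest p, those with the largest change, those not called and H2-K1, and of each other list the 2 called genes with the smallest p. Alternatives were DESeq2 1.42.0 (its size factors, and its Wald test), library size alone, no or a stricter filter (10 CPM in 5 libraries), limma-voom (limma 3.58.1), the replicate letter as a block, the 10 compared libraries alone, 3 surrogate variables (sva 3.50.0), leaving libraries out, and limma on log2(RPKM + 1). Gene positions came from GENCODE M21 (GRCm38) and promoter windows from RefSeq (GRCm38.p6). Figures were drawn with matplotlib 3.10.9.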

Additional observations from a re-analysis of the deposited data

Results flagged for a closer look

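In each group of 5 libraries, the highest or lowest CPM of a tested member was singled out where its gap to the nearest library took up more of the group's range than Dixon's 95% critical value of 0.71 allows. This held for 12 of 96 groups (12.5%), beside 8.85% of the 52948 groups over all tested genes, while chance alone gives about 1 in 20. Of the 12, 10 were in unstimulated E, D at 10 ng/mL or B at 100 ng/mL, which stood apart at the low end of the second principal component. Unstimulated E was the lowest of its group for H2-Q5 (19.9 CPM, nearest other 29.2), H2-Q6 (50.4, nearest other 75.4), H2-Q7 (80.8, nearest other 122) and Erap1 (101.3, nearest other 143). The same library was the highest for Calr (809 CPM, nearest other 694) and Pdia3 (1387, nearest other 1149). Library D at 10 ng/mL was the lowest for H2-Q6 (52.05 CPM, nearest other 74.95) and Erap1 (109, nearest other 156) and the highest for Canx (992, nearest other 879). Library B at 100 ng/mL was the highest for Canx (1090 CPM, nearest other 895). The other 2 were Tap1 in unstimulated C (122 CPM, nearest other 135) and H2-DMa in 10 ng/mL B (2.31 CPM, nearest other 2.04).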

How the results depend on the processing

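Over 26 alternatives, 22 to 29 members were called at 100 ng/mL against unstimulated (25 in the chosen fit), 0 at 10 ng/mL, and 22 to 28 at 100 against 10 ng/mL (26 in the chosen fit). Leaving out each library in turn gave 25 to 26, 0, and 24 to 27. None of the 25 falls at 100 ng/mL against unstimulated lost its call in an alternative in which the gene was tested, but limma on log2(RPKM + 1), a scale that understates changes of low genes, gave -0.17 for H2-DMb1, -0.18 for Cd74 and -0.22 for H2-DMa. Without H2-DMb1, a setting added after the data were seen, 24, 0 and 25 of 31 members were called. The letters A to E did not pair the libraries (correlations of deviations -0.342 to 0.132), and with the letter as a replicate block 25, 0 and 26 members were called, beside 7069, 0 and 6582 of all genes. Of all genes, 7571 were called at 100 ng/mL, and 4976 with the filter at 10 CPM, which tests fewer genes; at 10 ng/mL 0 were called, 8 by DESeq2, 28 with surrogate variables and 1 without 100 ng/mL B. With surrogate variables, under which 10235 of all genes were called at 100 ng/mL, H2-T23 (adjusted p = 9.20e-04), H2-T24 (0.029) and Cd1d1 (1.29e-04) were called too, and Erap1 was called lower under 9 alternatives; the cause was not tested. Against 10 ng/mL, H2-T10, H2-T22 and Cd74 lost their calls under 2, 5 and 5 alternatives (highest adjusted p 0.0523, 0.0692 and 0.0884). The sign of Canx turned without 100 ng/mL B (-0.0148; without one library -0.0148 to 0.112). Of log2 ratios at 10 ng/mL against unstimulated, none of which was called, that of Psmb10 over Psmb7 changed sign (0.0017 without the 3 libraries that stood apart; -0.1111 to 0.1017 without one library), as did Psmb9 over Psmb6 (-0.1199 to 0.0246) and H2-K1 and H2-D1 over B2m (-0.0755 to 0.0214), and Psme1 and Psme2 over Psme3 passed the threshold without unstimulated E (-0.1357, adjusted p = 0.0333, exact permutation test). Depth limits the class II chains and Ciita, at most 23 counts per library.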
